A study of Mus musculus with 6 samples.

Results

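Transcript levels of proteasome genes were examined in RAW264.7 cells after silencing of Ep300. The set holds every row of the deposited count table whose symbol is Psm followed by a letter from a to g and a number, which took 48 of 49492 rows. RAW264.7 is an established mouse macrophage cell line. The labels give 3 libraries of cells transfected with 50 nM of an siRNA against Ep300 and 3 libraries of cells given 50 nM of a control siRNA (genotype WT in the labels), all collected at 48 h. Ep300 encodes p300, a lysine acetyltransferase that acts as a transcriptional coactivator, and the study asks how its silencing alters gene expression in these macrophages. Both groups were transfected, so both carry an siRNA and the transfection reagent. Both come from this 1 line. Separate cultures are not named in the labels, so p-values measure only how far these libraries vary, and that spread may be technical.

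The proteasome degrades proteins that are mostly tagged with ubiquitin. Its 20S core is a barrel of alpha rings around beta rings, and Psmb5, Psmb6 and Psmb7 encode the beta subunits that cut. In cells exposed to interferon, and in many immune cells at rest, Psmb8, Psmb9 and Psmb10 encode subunits that take the places of Psmb5, Psmb6 and Psmb7 in newly built cores. That form is the immunoproteasome, which generates peptides for presentation on MHC class I. The 19S regulatory particle, with ATPases (Psmc genes) and other subunits (Psmd genes), recognises, unfolds and feeds substrates into the core. Psme genes encode other activators that dock on the ends of the core, Psmf1 encodes PI31, a proteasome-binding protein, and Psmg genes encode chaperones that help to assemble the core.

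Total counts ranged from 29993567 to 45377510 per library. Ep300 itself was at 51.1, 59.0 and 54.9 CPM (counts scaled to library size, with TMM as the correction for library composition) after Ep300 siRNA and at 106.8, 115.3 and 118.4 CPM in the controls, a log2 fold change of −1.04 ± 0.07 (SE, n = 3 per group, edgeR adjusted p = 3.62e-05). Ep300 siRNA replicate 1 stood apart from the other libraries. It held 5823 CPM of Gm42418, which overlaps ribosomal RNA sequence, against 1327 to 2174 CPM elsewhere, and lay at −29.7 on the first principal component against −13.8 and −8.88 for the other 2 libraries of its group. Of 8 macrophage markers, 7 were high enough to test, and Mertk was at 4 to 14 counts per library. Of the 7, 0 passed the edgeR test and 4 had an unadjusted p under 0.05, against 22.2% of all genes tested. Of 17 markers of fibroblasts, lymphocytes, epithelium and endothelium, 3 were high enough to test, their summed level was 0.577 to 0.999 CPM after Ep300 siRNA and 0.697 to 1.10 CPM in the controls, and Epcam and Cd3g had no counts.

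Promoter stretches of 3 genes set the constitutive catalytic genes beside an inducible one, since the contrast between these classes is the main question asked of the set. They are read from RefSeq windows upstream of gene starts (build GRCm38.p6), cut back to the longest stretch that overlaps no annotated exon, and written 5′ to 3′ on the strand of the gene. Capitals mark a match to TGACNNNGC, the core of the antioxidant response element, to which NFE2L1 and NFE2L2 are known to bind. Psmb5 is shown at chr14:54618023-54618245 (minus strand), Psmb6 at chr11:70525107-70525356 (plus strand) and Psmb10 at chr8:105938445-105938642 (minus strand).
Psmb5: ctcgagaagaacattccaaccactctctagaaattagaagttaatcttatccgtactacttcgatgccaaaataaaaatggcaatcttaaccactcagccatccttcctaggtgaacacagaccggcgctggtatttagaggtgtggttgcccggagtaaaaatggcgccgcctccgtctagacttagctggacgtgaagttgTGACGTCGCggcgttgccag
Psmb6: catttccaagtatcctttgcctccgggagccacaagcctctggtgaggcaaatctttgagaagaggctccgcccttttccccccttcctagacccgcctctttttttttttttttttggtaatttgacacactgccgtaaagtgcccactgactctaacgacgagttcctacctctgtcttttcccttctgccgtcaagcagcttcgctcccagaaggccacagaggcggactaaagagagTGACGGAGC
Psmb10: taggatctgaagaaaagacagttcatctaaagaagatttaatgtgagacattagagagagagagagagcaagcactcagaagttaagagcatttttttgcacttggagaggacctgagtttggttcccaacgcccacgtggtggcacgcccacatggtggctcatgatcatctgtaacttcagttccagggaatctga
The match lay 47 to 39 bases upstream of the start in Psmb5 and 9 to 1 bases upstream in Psmb6. Of 40 proteasome genes with an entry in the RefSeq table, 5 held TGACNNNGC on either strand within 250 bases upstream (Psmb5, Psmb6, Psmc6, Psmd9 and Psmd12), or 12.5%, against 11.5% of all 27025 genes in the table. The core of the interferon-stimulated response element, a pair of GAAA runs with 2 bases of any kind between them, was found in 3 (Psmb3, Psmd4 and Psmd9), or 7.5%, against 3.46% of all genes. Psmd9 held both motifs, at 31 to 23 and at 159 to 150 bases upstream, with no overlap. Its window, 123227940 to 123228189 on the plus strand of chromosome 5, lies past the GENCODE start of the gene at 123169413. Windows of other members, such as Psmb11 and Psmd13, also lie past the GENCODE start, within annotated exons, and count in the shares above. The windows of Psmb8, Psmb9 and Psmb10 held neither run of letters. Those of Psmb8 and Psmb9 are not shown because all 250 of their bases overlap annotated exons. The Psmb8 window starts at position 34197945, past the GENCODE start of the gene at 34197721. That of Psmb9, 34187331 to 34187580 on the minus strand, lies past the GENCODE start at 34187764. For both genes, the sequence upstream of that start was not searched. Psmb8 and Psmb9 lie 9957 bases apart, start to start, on chromosome 17, and the annotated starts of Psmb9 and of the peptide transporter gene Tap1 lie 211 bases apart on opposite strands. Psma8, Psmb1, Psmb2, Psmb7, Psmc3, Psmd3, Psmd7 and Psmg2 have no entry.

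Silencing of Ep300 left the levels of most proteasome transcripts within a narrow range of the control. Of the 48 genes, 47 were high enough to test, 2 rose (Psmd7 and Psme1) and 0 fell at an edgeR adjusted p under 0.05. That is 4.26% of those tested, against 6.78% of all 15741 genes tested (2.76% higher and 4.02% lower). The 2 rises were of 1.36-fold and 1.30-fold, and the other 45 log2 fold changes ran from −0.29 to 0.18. Psmb11 was not tested, with 0 to 2 counts per library. The 95% interval of all 47 fold changes lay within 1.5-fold of no change in either direction, which is the precision that these counts and the spread of 3 libraries allow.

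Small positive values were the common pattern. Of the 47, 38 (80.9%) had a positive log2 fold change, against 49.2% of all genes tested, and the median was 0.07 against −0.0038. With library sizes alone in place of TMM, 31 were positive, and the median of all genes tested was −0.0377. The unadjusted edgeR p was under 0.05 for 11 of the 47 (23.4%), against 22.2% of all genes tested. The 3 Ep300 siRNA libraries lay fully above the 3 controls for 14 genes (29.8%; 13.0% of all genes tested) and fully below them for 3 (6.38%; 14.4% of all genes tested). Summed over the tested genes, proteasome transcripts took 6802, 6623 and 6898 CPM after Ep300 siRNA and 6262, 6284 and 6200 CPM in the controls. The groups did not overlap, and Psmd7 and Psme1 together made up 41.7% of the difference between their means. The libraries measure relative levels, so a change in RNA per cell common to all genes would not be seen, and fewer cells with a transcript cannot be told apart from less of it per cell. Without Ep300 siRNA replicate 1, the library that stood apart, Psmd7 and Psme1 were again the 2 genes that rose. In that fit 35 of the 47 were positive, and the median of all genes tested was 0.0024.

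**Figure D1:**
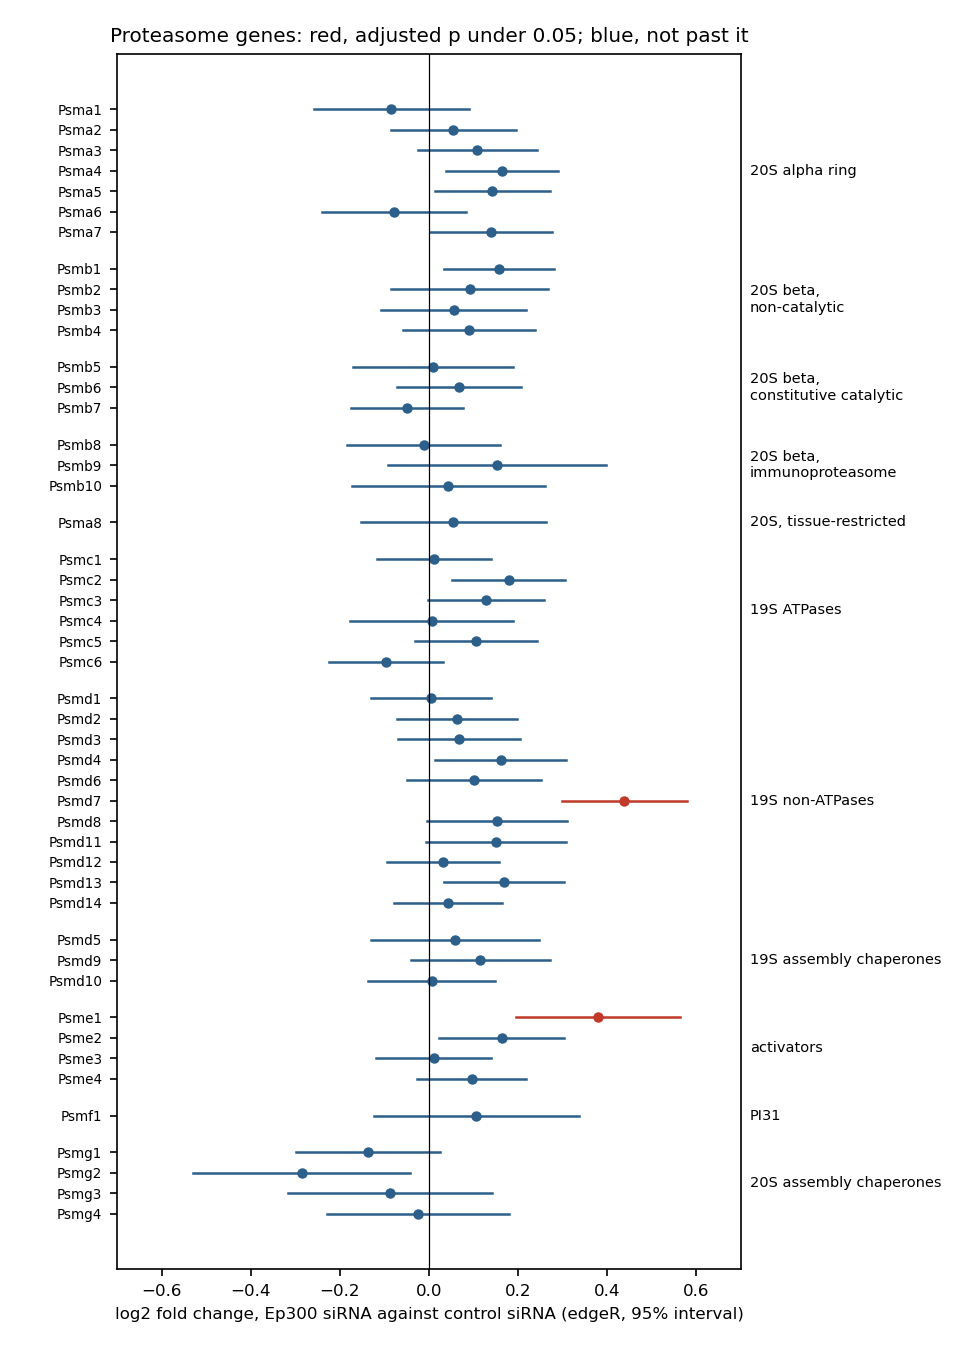
Log2 fold change of each tested proteasome gene (x axis, Ep300 siRNA against control siRNA, 3 libraries each; lines are edgeR 95% intervals), grouped by role. Psmd7 and Psme1, in red, passed the test, at 0.44 and 0.38, and the 4 core assembly chaperones at the bottom all lie below 0.

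The clearest member of the set was Psmd7, which encodes RPN8, the partner of the deubiquitinase RPN11 (Psmd14) in the 19S lid. Its level was 402, 396 and 401 CPM after Ep300 siRNA and 277, 314 and 293 CPM in the controls. The groups lay well apart, and the coefficient of variation was 0.732% over the Ep300 siRNA libraries and 6.26% over the controls. The rise was 0.44 ± 0.06 on the log2 scale (SE, n = 3 per group; edgeR adjusted p = 0.00257), with a 95% interval of the fold from 1.23 to 1.49. With any 1 library left out it was 0.40 to 0.50, and the call held. Psmd7 lies on chromosome 8 (GRCm38, 107580381 to 107588464, minus strand), overlaps no annotated exon of another gene, and none of its 50-base stretches occurs in the transcript of another gene.

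Other genes of the 19S particle had smaller values. All 11 non-ATPase subunits had positive log2 fold changes (median 0.10), against 49.2% of all genes tested. Of the 11, 1 (Psmd7) passed the edgeR test and 3 had an unadjusted p under 0.05. Over all genes tested those shares were 6.78% and 22.2%. Psmd14, the partner of Psmd7, was at 114.4 ± 2.89 CPM after Ep300 siRNA and 111.1 ± 2.04 CPM in the controls (SD, n = 3), a log2 fold change of 0.04 ± 0.06 (SE). Its groups did not overlap, but only just. The lowest Ep300 siRNA library was at 112.715 CPM and the highest control at 112.695 CPM. The ubiquitin receptor Psmd4 was at 0.16 ± 0.07 (SE) and the lid subunit Psmd13 at 0.17 ± 0.06 (SE), each with groups that did not overlap and neither past the threshold (edgeR adjusted p = 0.182 and 0.128). The large scaffold subunits Psmd1 and Psmd2 were at 0.00 ± 0.06 and 0.06 ± 0.06 (SE).

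The 6 ATPases form the ring that unfolds substrates. Of them, 0 passed the edgeR test and 1 had an unadjusted p under 0.05, against 22.2% of all genes tested. That gene was Psmc2, at 133, 138 and 135 CPM after Ep300 siRNA and 115, 119 and 124 CPM in the controls. Its groups did not overlap, but the difference, 0.18 ± 0.06 (SE) on the log2 scale, missed the threshold (edgeR adjusted p = 0.0912). Psmc6 was the 1 ATPase with a negative value, −0.10 ± 0.06 (SE), and its 3 control libraries lay above the 3 Ep300 siRNA libraries. Psmc1, the highest of them per length, was at 489.9 ± 8.89 against 485.9 ± 9.15 CPM (SD, n = 3). Over the 17 subunits of the particle the median log2 fold change was 0.10, and 0.07 without Ep300 siRNA replicate 1.

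None of the 14 constitutive core genes passed the test, and 4 had an unadjusted p under 0.05, against 22.2% of all genes tested. The median log2 fold change of the 14 was 0.08, and 0.04 with library sizes alone. There the median of all genes tested moved from −0.0038 to −0.038. In the alpha ring, which gates entry to the core, Psma4 was at 407, 387 and 401 CPM after Ep300 siRNA and at 353, 355 and 358 CPM in the controls. All 3 Ep300 siRNA libraries were higher, and the log2 fold change of 0.16 ± 0.06 (SE) missed the threshold by edgeR (adjusted p = 0.116) and passed it by DESeq2 (adjusted p = 0.0494). Psma3, Psma5 and Psma7 also had groups that did not overlap, at 0.11 to 0.14. Psma1 and Psma6 had negative values, −0.09 ± 0.08 and −0.08 ± 0.07 (SE).

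Among the beta subunits without a catalytic site, Psmb1 was at 67.6, 64.7 and 65.8 CPM after Ep300 siRNA and 60.7, 59.2 and 57.7 CPM in the controls. The groups did not overlap, and the log2 fold change was 0.16 ± 0.06 (SE; edgeR adjusted p = 0.125). Psmb2, Psmb3 and Psmb4 were at 0.06 to 0.09, with overlapping groups. Among the constitutive catalytic genes, Psmb5, the chymotrypsin-like subunit, was at 41.0, 35.0 and 37.7 CPM after Ep300 siRNA and 41.5, 35.7 and 35.7 CPM in the controls. Psmb6, the caspase-like subunit, was at 71.8, 63.5 and 70.2 CPM and 66.6, 64.7 and 64.7 CPM, and Psmb7, the trypsin-like subunit, at 91.2, 86.5 and 92.1 CPM and 91.1, 92.9 and 95.4 CPM, in that order of groups. Each pair of groups overlapped, and the log2 fold changes were 0.01 ± 0.08, 0.07 ± 0.06 and −0.05 ± 0.06 (SE).

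No immunoproteasome gene changed at an adjusted p under 0.05, and with all 6 libraries none had an unadjusted p under 0.05 either. Psmb8, which replaces Psmb5, was at 94.0, 107.9 and 110.6 CPM after Ep300 siRNA and 95.8, 108.1 and 111.4 CPM in the controls, nearly the same 3 values in each group. On the log2 scale they differed by −0.01 ± 0.08 (SE), with a 95% interval of −0.18 to 0.16 (edgeR adjusted p = 0.951). Psmb9, which replaces Psmb6, was at 13.4, 16.4 and 17.8 CPM and 13.0, 14.6 and 15.5 CPM. Its groups overlapped, and the log2 difference of 0.15 ± 0.11 (SE) had a 95% interval of −0.09 to 0.40 (edgeR adjusted p = 0.474). For Psmb9 it was 0.27 without Ep300 siRNA replicate 1 (edgeR unadjusted p = 0.0252, adjusted p = 0.199), 0.06 without Ep300 siRNA replicate 3 and 0.09 without control replicate 1. Psmb10, which replaces Psmb7, was at 22.9, 28.4 and 31.1 CPM and 26.0, 27.0 and 27.2 CPM, so that the controls lay inside the range of the Ep300 siRNA libraries. The log2 difference was 0.04 ± 0.10 (SE), and its 95% interval ran from −0.17 to 0.26 (edgeR adjusted p = 0.847). For Psmb10 it was 0.17 without Ep300 siRNA replicate 1 (edgeR adjusted p = 0.303) and −0.05 without Ep300 siRNA replicate 3.

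**Figure D2:**
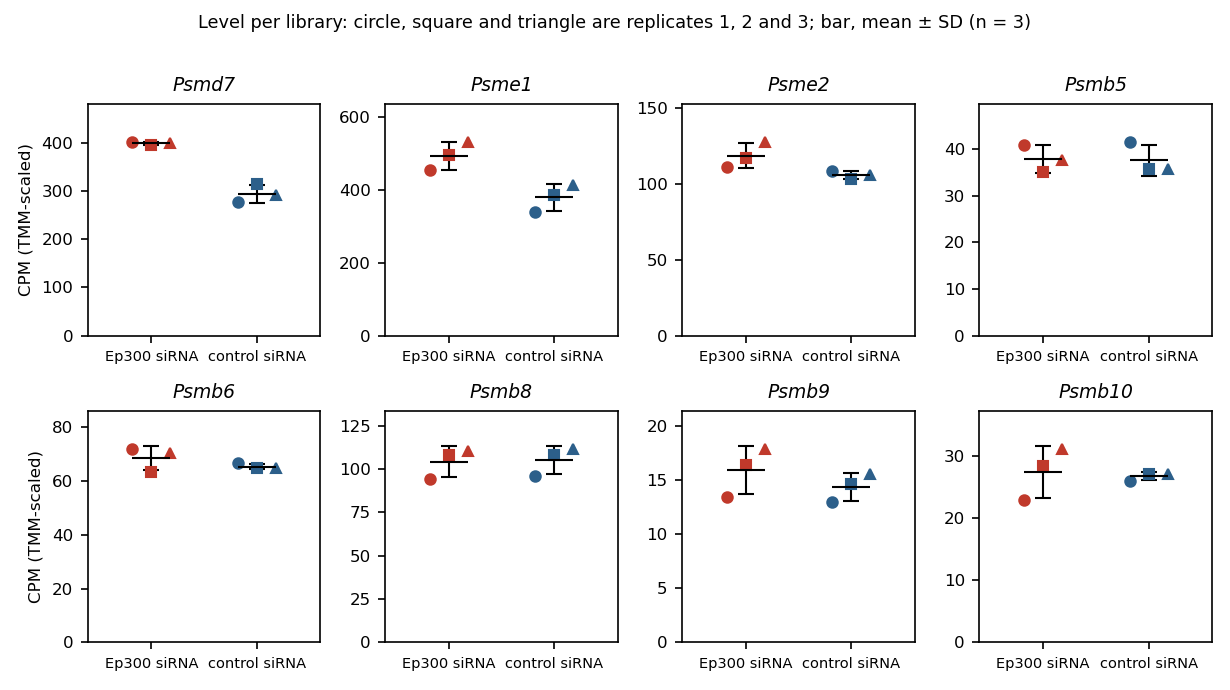
TMM-scaled CPM (y axis, from 0) of 8 proteasome genes in each library of the 2 groups, with the mean and SD of 3 libraries. The groups do not overlap for Psmd7, Psme1 and Psme2, while Psmb8, Psmb9 and Psmb10 have their lowest value in replicate 1 of each group.

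Each inducible gene was also set against the constitutive gene whose product it replaces. The log2 ratio of Psmb8 to Psmb5 was 1.46 ± 0.23 after Ep300 siRNA and 1.48 ± 0.24 in the controls (SD, n = 3), a difference of −0.02. That of Psmb9 to Psmb6 differed by 0.07 (−2.11 ± 0.26 against −2.19 ± 0.15) and that of Psmb10 to Psmb7 by 0.08 (−1.72 ± 0.24 against −1.80 ± 0.02). These are ratios of CPM, not corrected for length. The difference for Psmb10 to Psmb7 was larger than the SD of the controls and smaller than that of the Ep300 siRNA libraries. An exact two-sided permutation test of the 3 differences gave p = 0.7, 0.6 and 0.6, in a design that cannot go below p = 0.1. After Benjamini-Hochberg adjustment over the 3 comparisons, p was 0.7 for each by this test. The signs of the first and the second turned when some single libraries were left out. Without Ep300 siRNA replicate 1, the 3 differences were 0.11, 0.22 and 0.21. The 2 Ep300 siRNA libraries that remain then lay above all 3 controls in the log2 ratio of Psmb9 to Psmb6 (−1.95 and −1.98 against −2.35 to −2.06) and of Psmb10 to Psmb7 (−1.60 and −1.57 against −1.81 to −1.78). The exact permutation test gave p = 0.2 for both, the smallest value that 2 against 3 libraries allow, and p = 1 for Psmb8 to Psmb5.

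By the median gene, the class also varied more between libraries of 1 group than the constitutive core did. The median coefficient of variation was 14.1% after Ep300 siRNA and 7.80% in the controls for the 3 inducible genes, against 4.32% and 5.54% for the 14 constitutive core genes. This difference was not tested. Over all genes tested, the median coefficient of variation was 8.01% after Ep300 siRNA and 8.56% in the controls. The control values of Psmb8, Psmb9 and Psmb10 were 7.80%, 8.93% and 2.47%, so that of Psmb10 lay below the core median. Psmb8, Psmb9 and Psmb10 were each lowest in replicate 1 of both groups, a pattern found for 1 of the 14 constitutive core genes, 1 of 17 subunits of the 19S particle and 14.3% of all genes tested. Of the other tested genes in the set, the activators Psme1 and Psme4 and the assembly chaperone Psmg2 had it too. The median level of the 3 genes, relative to each gene's control mean, was −0.16, 0.09 and 0.22 for replicates 1, 2 and 3 of the Ep300 siRNA group and −0.13, 0.03 and 0.09 for those of the control group. For 22 interferon-stimulated genes those medians were −0.49, 0.35 and 0.28, and −0.27, 0.13 and 0.14. Both sets were thus lowest in replicate 1 of each group. The part of interferon signalling in the spread of Psmb8, Psmb9 and Psmb10 was not tested.

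**Figure D3:**
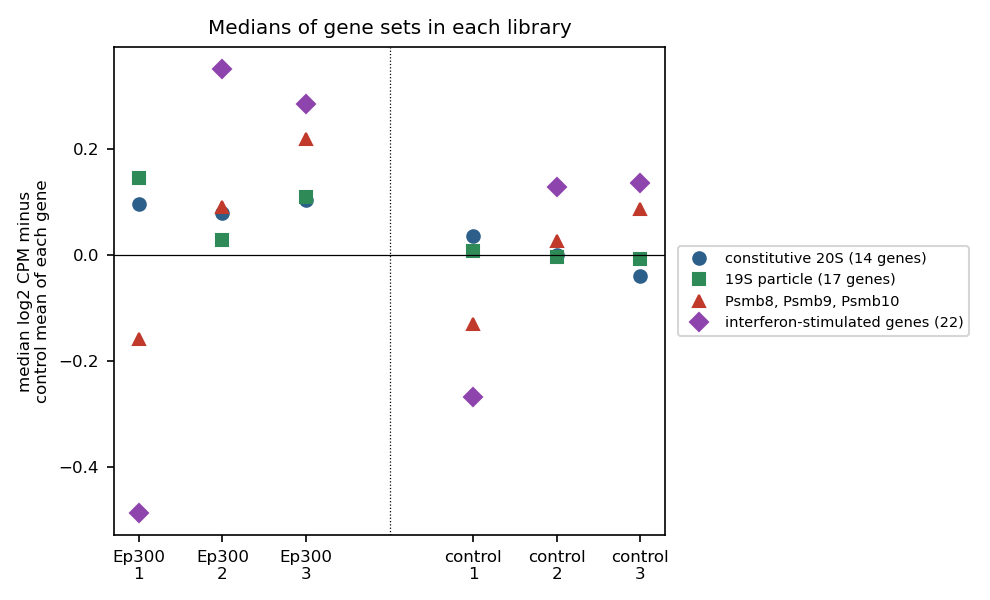
Median over the genes of each set of log2 CPM minus the gene's control mean (y axis), in the 6 libraries (x axis, replicate numbers under each group). The interferon-stimulated and immunoproteasome sets are lowest in replicate 1 of both groups, at −0.49 and −0.16 in Ep300 siRNA replicate 1, while the constitutive core and 19S sets stay between −0.04 and 0.15.

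Of the 4 activators, 1 passed the edgeR test and 2 had an unadjusted p under 0.05, against 6.78% and 22.2% of all genes tested. The gene that passed was Psme1, which rose. It encodes the alpha subunit of PA28, which opens the core and, like the immunoproteasome, is induced by interferon gamma. Its level was 455, 496 and 531 CPM after Ep300 siRNA and 339, 386 and 413 CPM in the controls, with no overlap. The rise was 0.38 ± 0.08 on the log2 scale (SE, n = 3 per group; edgeR adjusted p = 0.0205), with a 95% interval of the fold from 1.15 to 1.48. The call was lost without Ep300 siRNA replicate 2, Ep300 siRNA replicate 3 or control replicate 2 (edgeR adjusted p = 0.068, 0.0818 and 0.0656), while the log2 fold change ran from 0.31 to 0.45 over the 6 fits that left out 1 library each. Psme1 lies on chromosome 14 (GRCm38, 55578123 to 55581529, plus strand), and 5.47% of its 50-base stretches occur in transcripts of other genes.

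Psme2 encodes the beta subunit of PA28 and lies 5911 bases from Psme1. It was at 111, 117 and 127 CPM after Ep300 siRNA and 108, 103 and 105 CPM in the controls. The groups did not overlap, but the log2 fold change of 0.16 ± 0.06 (SE) missed the threshold (edgeR adjusted p = 0.156). Psme2b, a near copy on chromosome 11 that the symbol rule leaves out, shares 28.3% of the 50-base stretches of Psme2 and was at −0.05 ± 0.12 (SE), so reads may be split between them. Psme3, the nuclear PA28 gamma subunit, was at 71.0 ± 2.77 against 70.5 ± 2.12 CPM (SD, n = 3). Psme4, which encodes the activator PA200, was at 78.6 ± 1.78 against 73.5 ± 1.59 CPM (SD, n = 3), with groups that did not overlap (log2 fold change 0.10 ± 0.06, SE; edgeR adjusted p = 0.352).

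The core assembly chaperones were the 1 class in which all tested members had negative values. Of the 4, 0 passed the edgeR test and 1 had an unadjusted p under 0.05, against 22.2% of all genes tested. Psmg2 was at 6.52, 7.53 and 8.15 CPM after Ep300 siRNA and 8.57, 9.20 and 9.39 CPM in the controls. Its groups did not overlap, and the log2 fold change was −0.29 ± 0.11 (SE; edgeR adjusted p = 0.152). Its partner Psmg1 was at −0.14 ± 0.07 (SE), also without overlap, and Psmg3 and Psmg4 were at −0.09 ± 0.10 and −0.02 ± 0.09 (SE), with overlapping groups. The 3 chaperones of the 19S base, Psmd5, Psmd9 and Psmd10, had positive values and overlapping groups. Psmd9 led them, at 32.4, 31.5 and 35.3 CPM against 32.4, 29.8 and 29.4 CPM (log2 fold change 0.12 ± 0.07, SE; edgeR adjusted p = 0.385).

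Psmf1, the PI31 gene, was at 16.6, 13.0 and 14.4 CPM after Ep300 siRNA and 14.5, 13.9 and 12.4 CPM in the controls. The values overlapped, and the log2 fold change was 0.11 ± 0.10 (SE; edgeR adjusted p = 0.609), with 0.02 without Ep300 siRNA replicate 1 and 0.19 without replicate 2 of that group. Psma8, an alpha subunit known from the testis, was counted at 14.0, 13.0 and 15.3 CPM and 14.7, 13.3 and 12.7 CPM (log2 fold change 0.05 ± 0.09, SE; edgeR adjusted p = 0.794). Psmb11, the subunit of the thymus cortex, had 0, 2 and 1 counts and 0, 0 and 2 counts, too few for a fold change.

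Levels of different subunits were compared per kilobase of annotated exon, since long transcripts collect more reads. In the controls, the 14 constitutive core genes ran from 11.9 CPM per kb (Psmb3) to 149.9 CPM per kb (Psma4), a 12.6-fold range, with a median of 36.0 CPM per kb. The 17 genes of the 19S particle ran from 14.4 (Psmd11) to 251 CPM per kb (Psmc1), with a median of 47.6 CPM per kb. Per kb of the longest coding transcript, a length chosen after the data were seen, the core ran from 25.4 (Psmb2) to 305 CPM per kb (Psma4), and the 19S particle from 32.4 (Psmd11) to 305 CPM per kb (Psmc1). Subunits that enter the complex in equal numbers thus had unequal counts per kb with either length, and the lowest core gene changed with the length. Psme1 was at 172 ± 16.9 CPM per kb in the controls (SD, n = 3), above Psme2, its partner in PA28, at 59.9 ± 1.36 CPM per kb. The assembly chaperones Psmg1 to Psmg4 ran from 2.82 to 20.4 CPM per kb, and Psmf1 was at 2.11 CPM per kb.

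**Figure D4:**
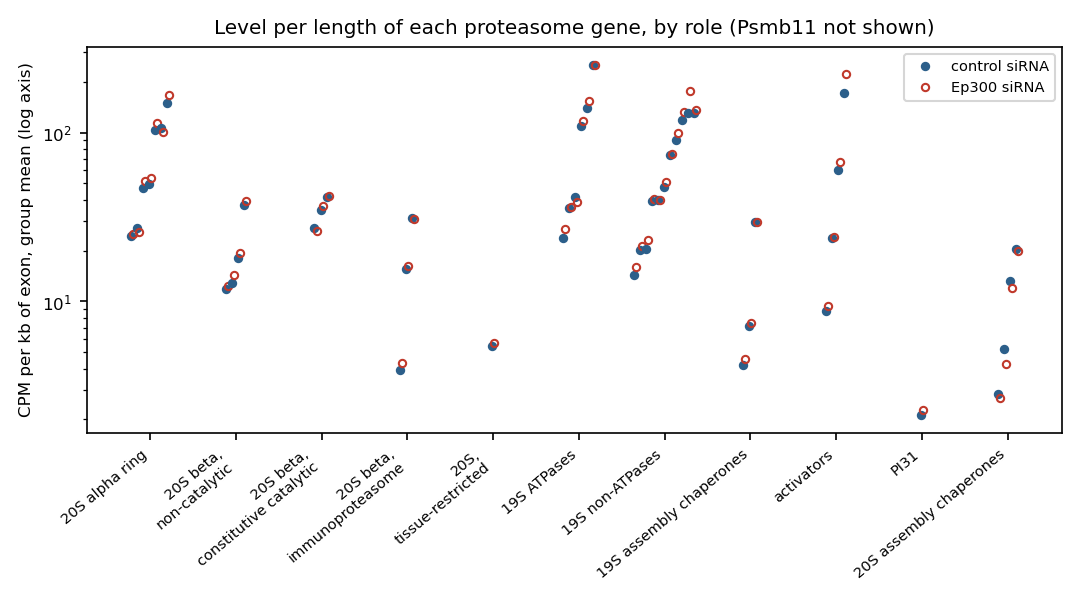
Group mean level per length of each proteasome gene (y axis, CPM per kb of annotated exon, log axis), by role (x axis), in control siRNA (filled) and Ep300 siRNA (open) libraries. The spread between genes of a role, 12.6-fold over the constitutive core, is far larger than the shift between the groups.

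Among the catalytic genes, the controls held Psmb5 at 41.8, Psmb6 at 34.9 and Psmb7 at 27.2 CPM per kb, and Psmb8 at 31.1, Psmb10 at 15.7 and Psmb9 at 3.92 CPM per kb. All 3 inducible genes were thus counted in the control cells. Per kb of the longest coding transcript the order changed: Psmb6 was at 81.9, Psmb7 at 80.3, Psmb8 at 64.6, Psmb5 at 41.8, Psmb10 at 20.4 and Psmb9 at 10.6 CPM per kb. Psmb9 was the lowest of the 6 with either length. Of the transcripts of each pair per length, the inducible gene made up 42.3% ± 3.82 (Psmb8), 10.6% ± 1.65 (Psmb9) and 37.9% ± 3.80 (Psmb10) after Ep300 siRNA, and 42.7% ± 4.03, 10.1% ± 0.950 and 36.5% ± 0.279 in the controls (SD, n = 3). The differences, −0.42, 0.53 and 1.33 percentage points, were smaller than the SD of the Ep300 siRNA libraries. That of Psmb10 was larger than the SD of the controls. Its share was 33.5%, 39.7% and 40.4% in Ep300 siRNA replicates 1, 2 and 3. The shares depend on the length used too. With the longest coding transcript in place of all annotated exons, the control means were 60.7%, 11.5% and 20.2%.

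Genes that work with the proteasome were examined for context. Of 12 partners of the proteasome outside the symbol rule (of 13 listed, Paaf1 had no row), 0 passed the edgeR test and 2 had an unadjusted p under 0.05. Of 8 genes that deliver substrates, 0 passed and 5 had an unadjusted p under 0.05, against 22.2% of all genes tested. The smallest p in each list belonged to the thioredoxin-like Txnl1 (log2 fold change −0.19 ± 0.06, SE) and the unfoldase Vcp (0.21 ± 0.06, SE). Pomp, which matures the core, was at −0.04 ± 0.07 (SE). Of 4 genes that control transcription of the subunits, 1, Nfe2l1, rose, against 2.76% of all genes tested. Its product is known to raise proteasome gene transcription when proteasome activity is low. Nfe2l1 was at 499, 448 and 444 CPM after Ep300 siRNA and 355, 384 and 332 CPM in the controls, with no overlap, and its log2 fold change was 0.38 ± 0.07 (SE; edgeR adjusted p = 0.0118, and 0.0199 to 0.0495 with 1 library left out). Ddi2 and Ngly1, which process that product, were at −0.10 ± 0.07 and 0.18 ± 0.11 (SE), and Nfe2l2 at −0.21 ± 0.06 (SE), none past the threshold.

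All 11 partners and inducers of the class I pathway had positive log2 fold changes (median 0.14), against 49.2% of all genes tested. Of the 11, 1, Erap1, passed the edgeR test and rose, and 2 had an unadjusted p under 0.05. Over all genes tested, 6.78% passed and 22.2% had an unadjusted p under 0.05. Erap1 trims peptides in the endoplasmic reticulum, and it was at 71.7, 77.1 and 78.2 CPM after Ep300 siRNA and 61.2, 63.2 and 64.7 CPM in the controls (log2 fold change 0.26 ± 0.06, SE; edgeR adjusted p = 0.0231). Its call was lost when Ep300 siRNA replicate 2 or 3 or control replicate 2 or 3 was left out (edgeR adjusted p = 0.0537 to 0.0921). The largest log2 fold change in the list was that of Stat2, an interferon signalling factor, 0.53 ± 0.15 (SE), with overlapping groups and an edgeR adjusted p of 0.0552. Tap1, the neighbour of Psmb9, was at 52.3, 66.7 and 68.9 CPM and 44.1, 55.3 and 59.3 CPM. Its groups overlapped (0.25 ± 0.12, SE; edgeR adjusted p = 0.25), and, like Psmb9, it was lowest in replicate 1 of both groups. Of the 22 interferon-stimulated genes, 0 passed the edgeR test and 1, Oas1a, had an unadjusted p under 0.05, against 22.2% of all genes tested.

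Counting adds its own limits for some members. For 11 of the 48 genes, at least 5% of 50-base stretches occur in transcripts of other genes, among them Psmb5 (54.1%), Psma5 (49.1%) and Psme2 (28.3%), so their counts depend on how shared reads were treated. Exons of 11 genes overlap an annotated gene on the opposite strand, Psmb8 over 14.7% of its exon length and Psmb9 over 5.79% (with Tap1), and whether counting used the strand is not stated in the labels.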

How the data were processed

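The labels describe TRIzol RNA (2 µg per library) made into stranded mRNA libraries. The build GRCm38 and the tools STAR 2.5.3a, fastp 0.23.4, edgeR 3.12.1 and featureCounts are named per the submitters' processing notes. Settings for strand, shared reads or molecular identifiers are not stated there. The authors deposited raw counts per gene symbol, with no normalization. Among counts of 1 to 4, 79.8% to 80.9% were even in each library. Counts of libraries of 1 group differed beyond counting noise, with chi-square over its degrees of freedom at 8.43 to 29.6, so none was treated as a copy of another. That does not show that they are separate cultures, and the excess of even counts can raise this measure.

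Counts were tested with edgeR 4.0.16 (R 4.3.3): filterByExpr, TMM, and the quasi-likelihood F-test with no covariate, with two-sided p adjusted by Benjamini-Hochberg over 15741 genes at a threshold of 0.05. The step was tested on simulated data. Standard errors come from the log2 fold change and F. Log2 CPM used a prior count of 2. Coordinates and exon lengths are from GENCODE M21, promoters from RefSeq. Members and gene lists were chosen with earlier results of these data known, and 1 of the lists is not reported here. Genes described by library are Psmb5 to Psmb10 and those past the threshold. In each role, the member with the smallest p and the one with the largest change are also described by library. Other members are named for their place in the complex or for values seen first, such as groups that did not overlap or a negative sign. Not every member with such values is named, and Psmc3, whose groups did not overlap, is not described. Psme2, as the partner of Psme1, and Tap1, as the neighbour of Psmb9, are given by library outside this rule and were chosen after their values were seen. Alternatives were other scalings, filters and tools (DESeq2 1.42.0, limma-voom from limma 3.58.1), a replicate block, each library left out, halved counts, removal of mitochondrial and Gm42418 rows and a threshold of 0.01. Python 3.11.15, scipy 1.17.1 and matplotlib 3.10.9 were also used.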

Additional observations from a re-analysis of the deposited data

How the results depend on the processing

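Psmd7 passed the threshold in every setting run (log2 fold change 0.40 to 0.50). Psme1 passed it in all but those that left out Ep300 siRNA replicate 2 or 3 or control replicate 2, and a threshold of 0.01. With that threshold 1 proteasome gene rose in place of 2, and with 1 library left out 1 to 2 rose. DESeq2 called 3 of the 47 (Psma4, Psmd7 and Psme1), and 1436 of all 15741 genes tested, against 1068 by edgeR. No setting called a fall. The median of the constitutive core genes was 0.045 with library sizes alone, and the log2 fold change of Psmb5 was −0.027, against 0.0082 with TMM. With 1 library left out, the difference in the log2 ratio ran from −0.163 to 0.105 for Psmb8 to Psmb5, from −0.010 to 0.224 for Psmb9 to Psmb6 and from 0.0018 to 0.215 for Psmb10 to Psmb7. In the same settings the log2 fold change ran from −0.042 to 0.090 for Psmb5, from −0.070 to 0.065 for Psmb8, from −0.055 to 0.165 for Psmb10 and from −0.00962 to 0.121 for Psma8. For Psmb9 it ran from 0.061 to 0.265, for Psmf1 from 0.021 to 0.187, for Psmb6 from 0.042 to 0.121, for Psmb7 from −0.067 to −0.021 and for Psmd9 from 0.066 to 0.164. The median of Psmb8, Psmb9 and Psmb10 ran from −0.055 to 0.165.

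Over all genes, 1721 were called with no filter on low counts (730 higher, 991 lower), 369 at a threshold of 0.01 (130 higher, 239 lower), and 693 rose by DESeq2 against 435 by edgeR. With library sizes alone 316 rose and 788 fell, against 435 and 633. With 1 library left out, 490 to 1054 were called (202 to 447 higher, 280 to 607 lower). The cause of these changes in number was not tested. Over all genes tested, same-numbered libraries of the 2 groups did not deviate together (correlations of 0.087, 0.0198 and −0.0466). The numbers were therefore not taken as pairs in the main test. Psmb8, Psmb9, Psmb10 and Psme1 were among the genes lowest in replicate 1 of both groups. With the replicate number as a block, 2 proteasome genes rose and 0 fell, as without it, with no other call on a named gene changed. The edgeR adjusted p of Psme1 was 0.00342 with the block and 0.0205 without it, and 1357 genes were called against 1068. The block left the differences in log2 ratio at −0.025, 0.074 and 0.079 (exact permutation p = 0.75, 0.5 and 0.75, where 3 pairs cannot go below 0.25). Depth did not limit the tested members beyond the intervals given, except that Psmb11 could not be tested.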
